A study of Mus musculus with 8 samples.

Results

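B cells of the mouse kidney were selected on their own measured transcripts from single-cell RNA sequencing of leukocyte-enriched suspensions. A barcode counted as a cell when it had more than 300 genes, fewer than 20000 counts and less than 25% mitochondrial counts, and as a B cell when it also had at least 4 counts summed over *Pax5*, *Bank1*, *Ms4a1*, *Ighd*, *Blk* and *Cd79a* from at least 2 of these 6 genes. Cells with more than 1 count of the complement genes *C1qa*, *C1qb* and *C1qc* (macrophages), of *Themis*, *Cd3e* and *Cd3g* (T cells) or of *Flt1* and *Slc12a1* (endothelium and tubule) were set aside. The rule found 3794 B cells among 90855 cells, and among 120281 barcodes in all.

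The study asked how entospletinib, a small-molecule inhibitor of the spleen tyrosine kinase SYK, changes the leukocytes of the kidney after ischemia-reperfusion injury (IRI), in which a clip stops the blood flow of the left kidney for a time and is then released. There were 7 conditions of male C57BL/6 mice: a control of uninjured kidneys, vehicle (DMSO) at days 1, 7 and 14 after IRI, and entospletinib at the same days. The inhibitor or vehicle was injected before the ischemia, which was the only injection of the day 1 mice, and the later groups went on with daily injections to day 7 and then with injections on alternate days to day 14. Live leukocytes were enriched by light scatter and a dead-cell dye, and the cells of 3 mice were pooled per condition, so each condition is 1 sample without a replicate, and the 8 sublibraries over which the cells were divided measure technical spread only.

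B cells carry an antigen receptor made of immunoglobulin heavy and light chains and the signalling pair CD79A and CD79B. When antigen binds, kinases of the SRC family phosphorylate the CD79 tails, SYK docks there and passes the signal on through the adaptor BLNK, the kinase BTK and phospholipase C gamma 2 to calcium, NF-kappaB and NFAT, and early response genes such as the orphan nuclear receptors of the NR4A family are switched on. The same kinase serves Fc receptors and integrins of myeloid cells. Resting naive B cells of the follicular kind circulate through blood and lymphoid organs and are found in small numbers in a healthy kidney.

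The gated cells had the transcripts of B cells. *Pou2af1*, a coactivator of immunoglobulin genes and the one B cell marker that took no part in the rule, was 85.7-fold higher than in all other cells. Among the genes with the highest ratios were *Pax5* (134-fold), *Cd79a*, *Ighd*, *Gm43388*, *Ms4a1*, *Fcmr* (a receptor for IgM), *Fcer2a* (CD23), *Cacna1i*, *Blk*, *Pou2af1*, *Cr2* (the complement receptor CD21), *2010309G21Rik*, *Chst3* and *Cd55* (76.4-fold). These ratios describe what the rule gathered and carry no test. Thinned to 500 counts per cell, 81.8% of B cells (95% exact binomial interval 80.5 to 83.0) had a count of *Ebf1*, a transcription factor that fixes the B cell fate, against 1.6% of cells with at least 4 C1q counts, and 24.4% against 0.263% had a count of *Igkc*, the kappa light chain. Median depth before thinning was 1607 and 3381 counts in these kinds of cell.

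The edge of the rule was not sharp. There were 325 cells with 3 counts of the 6 genes, just outside, 339 with 4 counts, just inside, and 301 with 5 counts, and *Cd79b*, which the rule did not use, was seen in 10.2%, 11.2% and 10.6% of them. Their median depths of 709, 751 and 882 counts lay below that of the B cells as a whole, which had a median of 10 counts of the 6 genes. The exclusion genes removed 589 of 4383 candidates, and 252 barcodes with enough B cell counts lay outside the cell limits. No full barcode occurred more than 1 time, and 38 B cells (1.0%) shared their well combination of the first 3 barcoding rounds with a B cell of another sublibrary. Counted among all barcodes, a set many times larger, 23.8% shared it with some barcode of another sublibrary, and the 2 shares cannot be compared.

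Depth and the transcripts of other cells differed between conditions, and their part in the expression results that follow was not tested beyond the values given. Summed B cell counts ran from 392522 with vehicle at day 7 to 1619544 with vehicle at day 1. Where 3 values of the vehicle or entospletinib pools are listed, they stand in the order of days 1, 7 and 14. Median counts per B cell were 2157 in the control pool, 2498, 1789 and 1700.5 in the vehicle pools and 1458, 1976 and 822.5 in the entospletinib pools, so the cells with the inhibitor at day 14 were the shallowest. The share of B cells called doublets was 11.6% in the control pool, 9.14%, 10.1% and 15.2% in the vehicle pools and 9.25%, 6.15% and 7.5% in the entospletinib pools, so it was lower with the inhibitor at days 7 and 14. Of 9 neutrophil markers 8 were detected in every condition and *Ly6g* was at 0 throughout, and their summed level within the B cells was 143 CPM (counts scaled to a common total per condition) in the control pool, 1139, 431 and 412 CPM in the vehicle pools and 882, 147 and 172 CPM in the entospletinib pools. Of 9 monocyte markers 7 to 9 were detected by condition, and they summed to 172 CPM in the control pool, 1011, 438 and 353 CPM in the vehicle pools and 601, 200 and 231 CPM in the entospletinib pools. The 9 macrophage markers summed to between 229 and 516 CPM and the 8 dendritic cell markers to between 43.3 and 243 CPM. The 7 plasmacytoid dendritic cell markers, a separate list, summed to between 89.2 and 532 CPM. The T cell list summed to 29.6 to 230 CPM, the natural killer list to 13.6 to 54.4 CPM, the stroma list to 5.1 to 102 CPM, the erythroid list to 2.55 to 93.1 CPM and the basophil and mast cell list, with *Mcpt8* and *Ms4a2* at 0, to 1.85 to 13.2 CPM. The endothelial list summed to 486 to 715 CPM, of which 88.1% was *Pecam1*, an adhesion molecule that leukocytes carry too. Neutrophil and monocyte marker levels were thus higher with vehicle than with entospletinib on all 3 days, in the same direction as in the cells around the B cells, where the neutrophil sum was 5565, 1704 and 1090 CPM in the vehicle pools against 3209, 463 and 286 CPM in the entospletinib pools. Many of the values are therefore also given for the B cells without a single count of the neutrophil, monocyte, macrophage or dendritic cell lists, called here B cells free of myeloid counts. They were 42.5% of B cells in the control pool, 21.8%, 50.3% and 36.4% in the vehicle pools and 35.7%, 44.9% and 58.7% in the entospletinib pools, and shallow cells are more often among them.

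**Figure D1:**
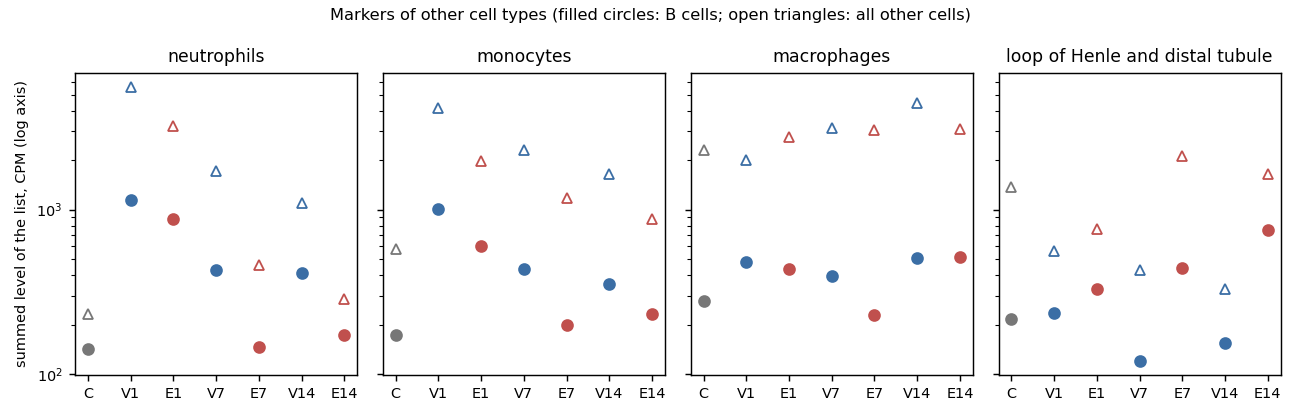
Summed level of marker genes of other cell types, in CPM on a log axis, by condition (C control, V vehicle, E entospletinib, with the day), within the B cells (filled circles) and in all other cells (open triangles). The neutrophil sum within the B cells is 1139 CPM with vehicle at day 1 and 143 CPM in the control, and in the neutrophil, monocyte and loop of Henle and distal tubule panels, but not in the macrophage panel, the B cells follow the order of the cells around them for the vehicle and entospletinib pools of the same day.

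B cells made up a larger share of the cells with entospletinib than with vehicle on every day. They were 3.93% of cells in the control (440 of 11205, 95% exact Clopper-Pearson interval 3.57 to 4.3, SD over the 8 sublibraries 0.449). With vehicle the share was 2.43% at day 1 (547 of 22489, interval 2.23 to 2.64, SD 0.285), 2.77% at day 7 (169 of 6110, interval 2.37 to 3.21, SD 0.458) and 2.43% at day 14 (420 of 17261, interval 2.21 to 2.67, SD 0.319). With entospletinib it was 4.47% at day 1 (627 of 14041, interval 4.13 to 4.82, SD 0.449), 7.06% at day 7 (537 of 7605, interval 6.5 to 7.66, SD 1.19) and 8.68% at day 14 (1054 of 12144, interval 8.18 to 9.19, SD 0.747). The 3 vehicle pools lay below the control, and the 3 entospletinib pools lay above it, without overlap between the treatments. The vehicle shares were further apart under the ribosomal protein limit of the study's methods (1.5% of counts), at 1.34%, 2.41% and 2.34%, and when only B cells without a myeloid marker count were taken, at 0.529%, 1.39% and 0.886%. With entospletinib at day 1 the order depended on the setting: under the ribosomal protein limit the share was 1.7%, below the control (3.7%) and below vehicle at days 7 and 14. It was also below the control among cells with *Ptprc*, the pan-leukocyte gene (4.82% against 5.13%). The same held when only B cells without a myeloid marker count were counted, over all cells (1.6% against 1.67%). Intervals cover counting error only.

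Set against vehicle of the same day, the share was 1.84-fold higher at day 1, 2.55-fold higher at day 7 and 3.57-fold higher at day 14, in 8 of 8 sublibraries each time. Averaged over days it was 6.74% with entospletinib and 2.54% with vehicle, a difference of 4.19 percentage points. The exact permutation test within days gave a two-sided p of 0.25, which is the smallest value that 3 pairs allow. Against the control, the vehicle share was 0.619-fold at day 1, 0.704-fold at day 7 and 0.62-fold at day 14, in 8, 7 and 8 of 8 sublibraries. A share depends on the other cells in the sorted suspension, so a change in B cell number and a change in the number of other cells cannot be told apart. The day 1 difference depended on which cells were counted: on the log2 scale it was 0.88, and 0.34 with the ribosomal protein limit. For B cells free of myeloid counts it was 1.59, with all cells kept in the denominator. The median share of ribosomal protein counts per B cell was 1.5% with vehicle and 1.93% with entospletinib at that day. Cells that the rule passed over held *Pax5* at 51.8 CPM with entospletinib at day 14 and at 5.09 to 15.2 CPM in the other pools, so more B cell transcripts lay outside the rule there.

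**Figure D2:**
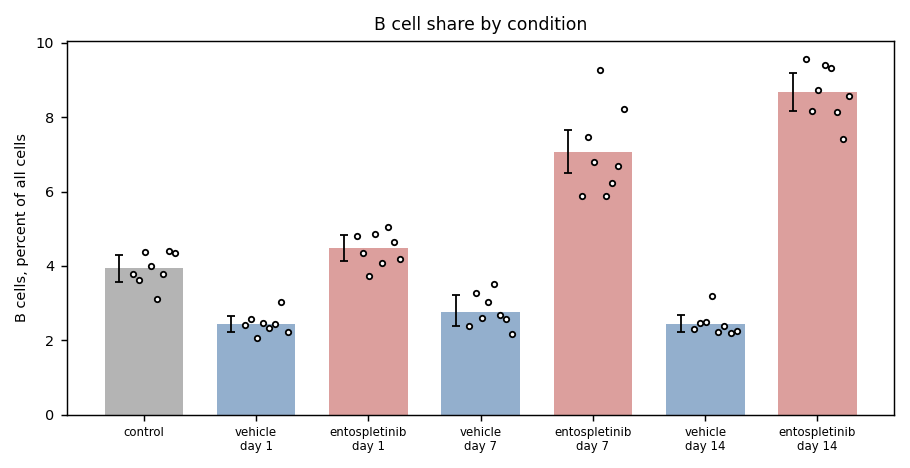
B cells as a percent of all cells of each condition. Bars give the share of the pool, error bars the exact 95% interval for counting error and open points the 8 sublibraries of the same pool, and the entospletinib bars of 4.47, 7.06 and 8.68% stand above the vehicle bars of 2.43, 2.77 and 2.43%.

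The injury comparison, vehicle against the uninjured control, asked what IRI did within the B cells, although surgery, vehicle and ischemia cannot be told apart against untouched kidneys. For expression, all B cells of a condition were added up and each gene was given in CPM. A ratio is given relative to the median over the genes kept (a mean of at least 50 CPM over both conditions and at least 20 counts), and a gene is called past the fold when that relative log2 ratio was at least 1 in size with 8 of 8 sublibraries in the same direction. With 1 pool per condition there is no test. At day 1, 47 of 3476 genes (1.35%) were past the fold higher and 18 (0.518%) lower, 1.87% together. At day 7 there were 15 of 3208 (0.468%) higher and 14 (0.436%) lower (0.904% together), and at day 14 there were 29 of 3349 (0.866%) higher and 7 (0.209%) lower (1.07% together). The 3 comparisons share the control pool.

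The highest ratios at day 1 belonged to *Thbs1* (thrombospondin 1, relative log2 ratio 5.05), *Fn1* (fibronectin, 4.08), *Adam8*, *Slc7a11* and *Smox*, genes known from activated myeloid cells. *Thbs1* was at 24.5 CPM in the control and at 911, 237 and 128 CPM with vehicle at days 1, 7 and 14, against 50.8 and then 2730, 891 and 314 CPM in the other cells. In B cells free of myeloid counts *Thbs1* was at 21.0, 61.7, 42.8 and 43.3 CPM in these 4 pools. Of the 47 genes past the fold higher at day 1, 44 were also past the fold in the other cells, beside 8.31% of all genes kept. Of the 47, 36 kept their direction in B cells free of myeloid counts, and 13 genes in all were past the fold higher there. The leading genes of day 7 were *Cxcl2*, *Tgm2*, *Ccnb1ip1*, *Mapkapk3* and *Nr4a3*, and those of day 14 *Fosl2*, *Thbs1*, *Basp1*, *Nr4a3* and *Il1r2*, of which *Il1r2*, the decoy receptor of interleukin 1, is in the neutrophil list. *Cxcl2*, *Tgm2*, *Mapkapk3* and *Basp1* were below the median of all genes in the B cells free of myeloid counts at these days (-0.74, -0.06, -0.15 and -0.64). What the transcripts of myeloid cells add to these results was not tested beyond these values.

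Lower after injury were *Siglech* and *Grm8* at day 1, at 152 and 120 CPM in the control and at 1.85 and 2.47 CPM with vehicle. *Siglech* marks plasmacytoid dendritic cells. Their 7 markers summed to 532 CPM in the control B cells, the highest of the 7 conditions, and to 185, 89.2 and 139 CPM with vehicle. In the other cells they summed to 399 CPM in the control and to 424, 228 and 263 CPM with vehicle. A count of them was seen in 17.2% of all B cells. They took no part in choosing the B cells free of myeloid counts. The part of plasmacytoid dendritic cells in these values was not tested. *Gm15564*, *Il31ra* and *Cdk8* completed the leading genes of that day, and *Gpx3* and *Arhgap6* at day 7 and *Slc5a12*, *Pdzd2*, *Scarna2* and *Gm15564* at day 14 were among the lowest. *Gpx3* and *Slc5a12* are proximal tubule genes, and the 8 proximal tubule markers summed to 1152 CPM in the control B cells and to 490, 239 and 199 CPM with vehicle. The same 8 markers went from 2188 to 487, 443 and 180 CPM in the other cells.

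Among genes that belong to B cells, the receptor component *Cd79b* was past the fold at day 1. It was at 95.5 CPM in the control (113 counts) and at 222, 76.4 and 111 CPM with vehicle at days 1, 7 and 14, a relative log2 ratio of 1.04 at day 1 that was 0.98 in B cells free of myeloid counts. *Ighd*, which chose the cells, and *Igkc* were higher at day 1 as well, in 8 of 8 sublibraries each, by 0.53 and 0.66. At day 1 *Iglc2* was at -0.08. At day 7 the 4 receptor chain genes kept that the rule did not use (*Cd79b*, *Ighm*, *Igkc* and *Iglc2*) had ratios of -0.74 to -0.26, with 169 cells behind the vehicle values. *Ccnd3*, cyclin D3, was lower on all 3 days in 8 of 8 sublibraries, by 0.55, 0.8 and 0.81, with 1395 CPM in the control and 1072, 769 and 799 CPM with vehicle, and did not reach the fold. The injury comparison of the 31 early response genes is given with the treatment below.

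The treatment comparison asked how entospletinib changed the B cells at a given day. At day 1, 12 of 3555 genes (0.338%) were past the fold higher and 10 (0.281%) lower with entospletinib, 0.619% together. At day 7 there were 9 of 3263 (0.276%) higher and 14 (0.429%) lower (0.705% together), and at day 14 there were 40 of 3390 (1.18%) higher and 37 (1.09%) lower (2.27% together). The near-even split at day 14 depended on the processing. It was 29 higher and 50 lower with TMM scaling in place of total counts, and 36 higher and 12 lower without called doublets. The one test that the design allows treats the 3 days as repeats of the same contrast: edgeR's quasi-likelihood test with day as a block, 2 residual degrees of freedom and Benjamini-Hochberg adjustment over 8692 genes called 59 genes higher (0.679%) and 94 lower (1.08%), 1.76% together, at an adjusted p under 0.05. In B cells free of myeloid counts it called 5 genes higher and 5 lower of 4267 tested (0.117% each and 0.234% together), 8 of them shared with the 153 calls in all B cells. Of the 153 calls, 88 could be tested there and 82 kept their direction. Removing called doublets left 10 higher and 6 lower of 7796 (0.128% and 0.077%, 0.205% together), all 16 among the 153.

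SYK itself was a B cell transcript that the treatment test did not call. *Syk* was at 1522 CPM in the control pool (interval 1453 to 1594), 1902, 1513 and 1314 CPM in the vehicle pools and 1530, 1548 and 1046 CPM in the entospletinib pools, against 306 to 811 CPM in the other cells. The vehicle and entospletinib values overlapped, and the edgeR log2 ratio was -0.24 (SE 0.113, adjusted p = 0.4). A count of *Syk* was seen in 49.5% of B cells and 19.6% of cells with C1q counts at 500 counts per cell.

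Of the 34 signalling genes, *Bank1* and *Blk* had chosen the cells. Of the other 32, all tested by edgeR, none rose and *Fyn*, a SRC family kinase, fell (log2 ratio -0.47, SE 0.111, adjusted p = 0.0487). Over all genes tested, 1.08% were called lower. The list median was -0.06, beside 0 over all genes tested, with 20 genes below and 12 above 0. *Blnk*, the adaptor next to SYK, was at 626 CPM in the control pool, 745, 560 and 616 CPM in the vehicle pools and 685, 703 and 752 CPM in the entospletinib pools, while *Btk* lay between 194 and 266 CPM in all pools. *Plcg2* stayed between 456 and 542 CPM in all 7 pools. *Fyn* was at 451, 527 and 420 CPM in the vehicle pools against 314, 443 and 292 CPM in the entospletinib pools, and its ratio of -0.57 in B cells free of myeloid counts had an adjusted p of 0.157 by edgeR. No signalling gene was past the fold at any single day. Protein phosphorylation, which the inhibitor acts on, was not measured.

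The receptor chains other than *Ighd* and *Cd79a*, which had chosen the cells, and the coreceptors gave no edgeR call among 6 and 10 genes tested. *Ighm*, the heavy chain of IgM, was at 800 CPM in the control pool, 1016, 560 and 670 CPM in the vehicle pools and 925, 916 and 601 CPM in the entospletinib pools (edgeR log2 ratio 0.09, SE 0.136). At day 7 the 5 chain genes kept that the rule did not use (*Cd79b*, *Ighm*, *Igkc*, *Iglc2* and *Iglc3*) had relative log2 ratios of 0.15 to 0.91, none past the fold, with *Iglc2* at 76.4 CPM with vehicle and 158 CPM with entospletinib. *Iglc1*, *Iglc2* and *Iglc3* are near-identical, so reads may be divided among them. *Cr2*, the complement receptor that lowers the threshold of the antigen receptor and is high on follicular and marginal zone B cells, was past the fold at day 14: it was at 186 CPM in the control pool, 208, 183 and 180 CPM in the vehicle pools and 212, 250 and 364 CPM in the entospletinib pools. The entospletinib values lay above all the vehicle values, the day 14 relative log2 ratio was 1.03 (SD over sublibraries 0.581) and 0.86 in B cells free of myeloid counts, and over the 3 days the edgeR log2 ratio of 0.47 (SE 0.155) had an adjusted p of 0.166. *Cd22*, an inhibitory coreceptor, ranged from 257 to 353 CPM over the pools.

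**Figure D3:**
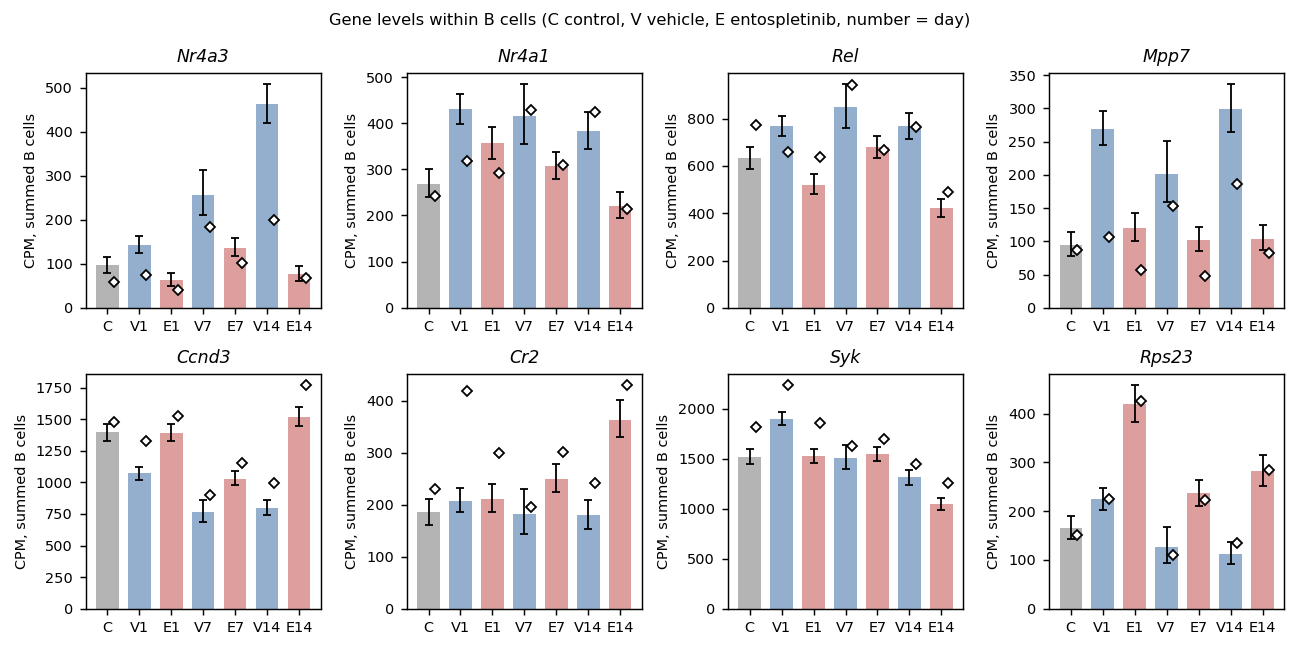
Level of 8 genes in the summed B cells of each condition in CPM (C control, V vehicle, E entospletinib, with the day). Bars with exact Poisson 95% intervals for counting error show all B cells and open diamonds the B cells free of myeloid counts, with *Nr4a3* at 463 CPM with vehicle and 77.1 CPM with entospletinib at day 14 and *Rps23* at 112 and 282 CPM.

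Early response genes, which antigen receptors and many other stimuli switch on, made up the list with the most edgeR calls after the ribosomal protein genes. Of 31 genes tested by edgeR, 0 rose and 6 fell: *Nr4a3*, *Rel*, *Fosb*, *Nr4a2*, *Tnfaip3* and *Cd80*. Over all genes tested, 0.679% were called higher and 1.08% lower. The list median was -0.45, beside 0 over all genes tested, and 27 of 31 ratios were below 0. Single days gave list medians of -0.40, -0.25 and -0.48, with 1 gene past the fold at day 1 (*Cd80*), 0 at day 7 and 3 at day 14 (*Nr4a3*, *Cd80* and *Fosb*), all lower. Over all genes kept, 0.281%, 0.429% and 1.09% were past the fold lower on these days. In B cells free of myeloid counts the list medians were 0.01, 0.00 and 0.01, and edgeR tested 24 of the genes with a median of 0.02. There *Nr4a3* was the 1 that fell, beside 0.117% of all genes tested. For vehicle against the control, the list medians were 0.24, 0.48 and 0.51, and -0.02, 0.19 and 0.08 in the B cells free of myeloid counts.

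The promoters of *Nr4a1* and *Nr4a3*, the members of the NR4A family with the most counts, are shown because these genes are a common readout of antigen receptor signalling in B cells. The sequences are from RefSeq (GRCm38.p6), 250 bases before to 50 bases after the annotated start of each gene, 5′ to 3′ on the plus strand, *Nr4a1* at chr15:101266596-101266895 and *Nr4a3* at chr4:48045055-48045354. Capitals mark TGACG on the printed strand or its reverse complement CGTCA, the core letters of the cyclic AMP response element, which occur 4 times in each, and 20.8% of 32851 promoters of this length hold at least 1 match.
Nr4a1 promoter: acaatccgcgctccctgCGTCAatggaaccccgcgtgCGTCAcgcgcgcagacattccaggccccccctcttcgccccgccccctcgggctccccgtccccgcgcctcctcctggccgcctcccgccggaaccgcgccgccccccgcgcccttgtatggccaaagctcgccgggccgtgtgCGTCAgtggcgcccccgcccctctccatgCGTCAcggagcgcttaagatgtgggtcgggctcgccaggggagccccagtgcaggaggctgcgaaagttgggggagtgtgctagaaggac
Nr4a3 promoter: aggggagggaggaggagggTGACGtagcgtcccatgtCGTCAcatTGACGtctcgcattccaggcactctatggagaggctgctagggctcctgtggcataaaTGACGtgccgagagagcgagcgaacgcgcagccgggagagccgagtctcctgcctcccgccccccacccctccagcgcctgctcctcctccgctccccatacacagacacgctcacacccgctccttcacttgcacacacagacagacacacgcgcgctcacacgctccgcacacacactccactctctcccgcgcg
A match is a description of the letters only.

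*Nr4a3* was called in all B cells, in those free of myeloid counts and in those without doublets. It was at 96.4 CPM in the control pool (interval 79.5 to 116), 143 (125 to 163), 257 (210 to 313) and 463 CPM (420 to 508) in the vehicle pools and 62.5 (48.9 to 78.8), 137 (117 to 158) and 77.1 CPM (61.9 to 95.1) in the entospletinib pools. Among the vehicle pools it was higher at each later day, and every vehicle pool lay above every entospletinib pool, with little room between vehicle at day 1 and entospletinib at day 7. Over the 3 days *Nr4a3* fell (edgeR log2 ratio -1.63, SE 0.235, adjusted p = 0.00355). The ratio was -1.17 (adjusted p = 0.0463) in B cells free of myeloid counts and -1.24 (adjusted p = 0.0257) without doublets. In the B cells free of myeloid counts its level was 57.8 CPM in the control pool, 74.1, 184 and 199 CPM in the vehicle pools and 40.0, 103 and 66.8 CPM in the entospletinib pools. The other cells had 102 CPM in the control pool, 214, 326 and 587 CPM in the vehicle pools and 93.6, 138 and 158 CPM in the entospletinib pools, so the direction was not particular to B cells. At 500 counts per cell, 4.62% of B cells and 4.65% of cells with C1q counts had a count of *Nr4a3*.

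*Nr4a1* was more abundant in B cells and was not called. Its level was 269 CPM in the control pool, 430, 415 and 383 CPM in the vehicle pools and 356, 307 and 221 CPM in the entospletinib pools. Every vehicle pool was again above every entospletinib pool, but the edgeR log2 ratio of -0.52 (SE 0.133) had an adjusted p of 0.0655. In B cells free of myeloid counts the ratio was -0.54 with an adjusted p of 0.316. *Rel*, the NF-kappaB subunit of lymphocytes, was at 633 CPM in the control pool, 767, 848 and 767 CPM in the vehicle pools and 520, 679 and 422 CPM in the entospletinib pools, and fell by 0.62 on the log2 scale (edgeR log2 ratio -0.62, SE 0.12, adjusted p = 0.0198). That call was lost in B cells free of myeloid counts, where the ratio was -0.41 with an adjusted p of 0.401.

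The calls of *Tnfaip3* and *Fosb* did not hold in B cells free of myeloid counts. *Tnfaip3*, the NF-kappaB inhibitor A20, had an edgeR log2 ratio of -0.70 (adjusted p = 0.0359) that became 0.08 (adjusted p = 0.972) in B cells free of myeloid counts. *Cd80*, a costimulatory ligand, was at 96.3, 84.1 and 100 CPM in the vehicle pools and 34.7, 22.1 and 24.5 CPM in the entospletinib pools, with an edgeR log2 ratio of -1.8 (SE 0.211), and too few counts were left to test it in the B cells free of myeloid counts. *Fosb* (edgeR log2 ratio -0.98, adjusted p = 0.00649) had a ratio of -0.53 there, with an adjusted p of 0.659. The activation markers *Cd69*, *Cd86* and *Cd83* were not called, and *Cd69*, a surface marker of recent stimulation, stayed between 89.4 and 138 CPM.

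**Figure D4:**
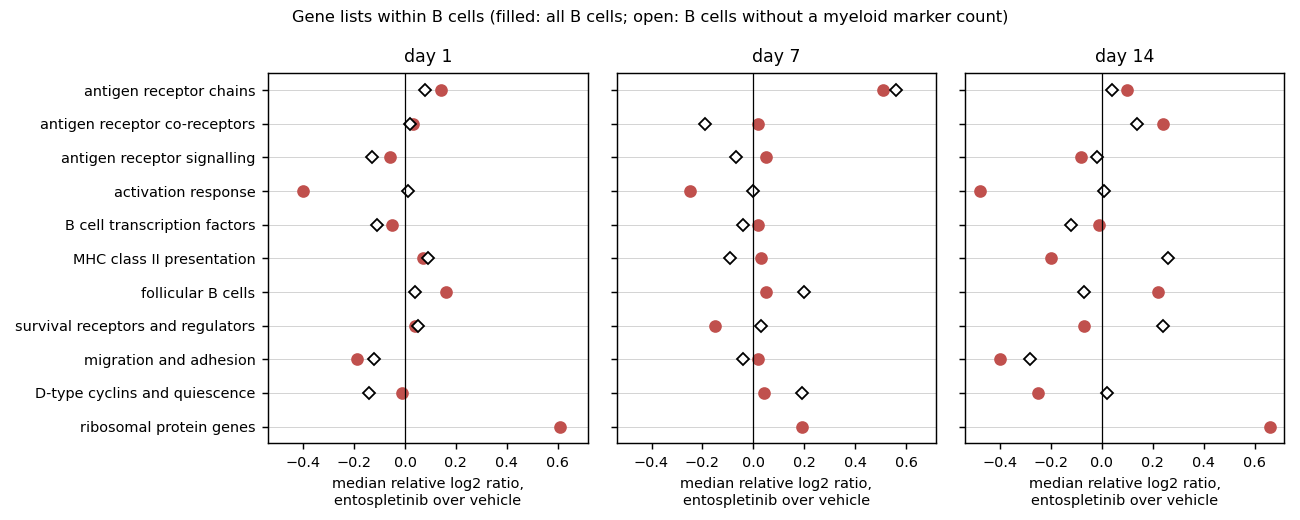
Median relative log2 ratio of entospletinib over vehicle for 11 gene lists within the B cells at days 1, 7 and 14, for all B cells (filled) and for B cells free of myeloid counts (open, not computed for ribosomal protein genes). The early response list lies at -0.40, -0.25 and -0.48 in all B cells and at 0.01, 0.00 and 0.01 without myeloid counts, and the ribosomal protein genes lie at 0.61, 0.19 and 0.66.

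Over all genes tested, the lowest p-values of the edgeR test among genes that fell belonged to *Ptgs2* (cyclooxygenase 2), *Thbs1*, *Antxr2*, *Mpp7*, *Il1b*, *Cd80*, *Basp1*, *Nlrp3*, *Ell2* and *Csf2rb*. Except for *Ell2* at day 14, each was higher in the other cells of every vehicle pool than in the B cells, and *Thbs1* and *Mpp7* alone of the 10 kept an adjusted p under 0.05 by edgeR once doublets were removed. The edgeR ratios of the other 8 without doublets were all below 0, from -1.82 for *Nlrp3* to -0.48 for *Il1b*, and of the 126 calls that could be tested without doublets 123 kept their direction. *Ptgs2* was at 144, 107 and 130 CPM in the vehicle pools and 26.9, 20.6 and 29.8 CPM in the entospletinib pools (edgeR log2 ratio -2.32, SE 0.181, adjusted p = 2.26e-05). In B cells free of myeloid counts it was at 24.7, 18.4 and 17.3 CPM in the vehicle pools and between 8.22 and 23.6 CPM in the entospletinib pools, and without doublets the adjusted p by edgeR was 0.709. *Il1b*, interleukin 1 beta, fell as well (edgeR log2 ratio -1.55, SE 0.177, adjusted p = 0.000651), with 800, 599 and 577 CPM in the vehicle pools against 380, 145 and 199 CPM in the entospletinib pools, and had a ratio of -0.61 with an adjusted p of 0.578 in the B cells free of myeloid counts.

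*Mpp7*, which encodes a scaffold protein of cell junctions, was called in those cells too. It was at 94.7 CPM in the control pool, 269, 201 and 299 CPM in the vehicle pools and 120, 102 and 104 CPM in the entospletinib pools, so all 3 entospletinib pools were near the control and all 3 vehicle pools above. *Mpp7* had an edgeR log2 ratio of -1.26 (SE 0.138, adjusted p = 0.000537), of -1.26 in B cells free of myeloid counts (adjusted p = 0.034) and of -0.88 without doublets (adjusted p = 0.0337). The other genes that fell in B cells free of myeloid counts were *Sox5* (log2 ratio -1.29), *Agbl1* (-1.83), *Gm19951* (-1.12) and *Nr4a3*. *Sox5* encodes a transcription factor, and in those cells it was at 218, 233 and 203 CPM in the vehicle pools and 79.9, 119 and 72.7 CPM in the entospletinib pools, with 113 CPM in the control. In all B cells *Sox5* was at 245, 135 and 328 CPM in the vehicle pools and 110, 181 and 134 CPM in the entospletinib pools, so day 7 went the other way, and its ratio of -0.79 was not called (adjusted p of 0.078 by edgeR). *Agbl1* was not called in all B cells either (ratio -1.12, adjusted p of 0.111 by edgeR), and at day 7 it hardly differed, with 91.8 and 86.3 CPM in the B cells free of myeloid counts and 66.2 and 69.5 CPM in all B cells. *Ell2*, an elongation factor that plasma cells use for immunoglobulin mRNA, was at 227, 280 and 225 CPM in the vehicle pools and 121, 136 and 98.2 CPM in the entospletinib pools. *Ell2* had an edgeR log2 ratio of -1.08 (SE 0.134, adjusted p = 0.00107), and of -0.77 (adjusted p = 0.175) in B cells free of myeloid counts.

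At single days the leading lower genes were *Ptgs2*, *Csf2rb*, *Hdc*, *Smox* and *Lpcat2* at day 1, *Slc7a11*, *Clec4e*, *Ccnb1ip1*, *Scarna2* and *Dgat1* at day 7, and *Dusp5*, *Nr4a3*, *Fosl2*, *Ptgs2* and *Cd80* at day 14. *Hdc*, which makes histamine and is in the neutrophil list, was at 251 CPM with vehicle and 74.7 CPM with entospletinib at day 1. *Slc7a11*, the cystine transporter, was at 234 CPM with vehicle and 4.58 CPM with entospletinib at day 7, a relative log2 ratio of -5.81 with an SD of 2.82 over sublibraries. Without doublets its counts went from 92 to 6 with vehicle and from 6 to 4 with entospletinib (ratio -2.52), and in B cells free of myeloid counts 2 and 1 were left. Of the genes past the fold lower, 6 of 10 at day 1, 12 of 14 at day 7 and 22 of 37 at day 14 were also past the fold in the other cells, beside 1.13%, 3.77% and 1.68% of all genes kept.

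Tubule genes and ribosomal protein genes were among those that rose. *Klk1*, kallikrein 1 of the distal nephron, which the list of plasmacytoid dendritic cells also holds, was at 53.1, 12.7 and 18.1 CPM in the vehicle pools and 152, 62.6 and 75.4 CPM in the entospletinib pools (edgeR log2 ratio 1.79, SE 0.198, adjusted p = 0.000537). *Atp1b1*, a subunit of the sodium pump that is abundant in tubules and also listed for transitional B cells, was at 183 CPM in the control pool, 105, 56.0 and 76.8 CPM in the vehicle pools and 191, 199 and 359 CPM in the entospletinib pools (edgeR log2 ratio 1.56, SE 0.195, adjusted p = 0.00107). In B cells free of myeloid counts its ratio was 1.27 with an adjusted p of 0.114 by edgeR, and in the other cells it went from 158, 110 and 108 CPM to 252, 545 and 534 CPM. Neither *Klk1* nor *Atp1b1* was called by edgeR without doublets (log2 ratios 0.98 and 1.49, adjusted p of 0.259 and 0.071). *Mecom* and *Siglech* were called with only 3 counts each in the vehicle B cells of day 7. The 8 markers of the loop of Henle and distal tubule summed to 236, 120 and 154 CPM in the vehicle pools against 330, 444 and 751 CPM in the entospletinib pools within the B cells, and to 560, 431 and 329 CPM and 757, 2122 and 1649 CPM in the other cells. *Slc12a3*, the thiazide-sensitive transporter, led the higher genes at day 14 (39.5 CPM with vehicle and 371 CPM with entospletinib), and *Acsm2* of the proximal tubule, *Gm47283* and *Scarna2* were also among the leading genes. The 8 proximal tubule markers did not keep one direction within the B cells, with 490, 239 and 199 CPM in the vehicle pools and 275, 465 and 487 CPM in the entospletinib pools. The part of free tubule RNA or attached tubule fragments in these values was not tested.

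Ribosomal protein genes were higher with entospletinib. By edgeR, 18 of 82 rose and 0 fell, beside 0.679% higher and 1.08% lower of all genes tested. The list median was 0.48, and 78 of 82 ratios were above 0. At day 1 all 75 genes kept were above the median of all genes (list median 0.61), at day 7 it was 51 of 67 (0.19) and at day 14 it was 66 of 69 (0.66). Past the fold higher were 3, 1 and 12 of them, beside 0.338%, 0.276% and 1.18% of all genes kept. *Rps23*, of the small ribosomal subunit, was at 166 CPM in the control pool, 224, 127 and 112 CPM in the vehicle pools and 419, 237 and 282 CPM in the entospletinib pools. *Rps23* had an edgeR log2 ratio of 1.03 (SE 0.134, adjusted p = 0.00139) and of 1.02 (adjusted p = 0.00915) in B cells free of myeloid counts. In the B cells free of myeloid counts 3 of 76 genes of the list were called higher, *Rps23*, *Rps27* and *Rpl21*, beside 0.117% of all genes tested there. The list median was 0.46, and outside the list *Fau* and the mitochondrial gene *mt-Nd4* were also called higher in those cells. Under the ribosomal protein limit, which removes cells by these same counts, the edgeR ratio was 0.67 (adjusted p = 0.0427) and the single-day ratio of *Rps23* went from 1.04 to 0.62 at day 1 and from 1.35 to 0.85 at day 14, under the fold, as did that of *Rpl21* at day 14 (1.37 to 0.83). The list medians in the other cells were 0.72, 0.08 and 0.58, so the direction was that of all cells. These genes have many processed copies in the genome, and reads of *Rpl9-ps6* and its parent cannot be told apart here.

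Other genes were higher with entospletinib on single days. *Peak1*, a pseudokinase gene, was at 152 CPM with vehicle and 4059 CPM with entospletinib at day 1 and between 150 and 237 CPM in the other 5 pools, and in the other cells it went from 398 to 4288 CPM at that day. *Il31ra*, *Rpph1*, *Ccnb1ip1* and *Rn7sk* followed it at day 1. At day 7 *Slc15a2*, *Atp1b1*, *Rbl2* and *Cfl1* led, each with 12 to 22 counts in the 169 vehicle B cells. Of the genes past the fold higher, 6 of 12 at day 1, 1 of 9 at day 7 and 20 of 40 at day 14 were also past it in the other cells, where 0.366%, 1.2% and 2.15% of all genes kept were. The difference between days was not tested.

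Few genes of quiescence, homing and B cell subsets were called. Over all genes tested by edgeR, 0.679% were called higher and 1.08% lower. *Ccnd3* was at 1072, 769 and 799 CPM in the vehicle pools against 1392, 1030 and 1520 CPM in the entospletinib pools, in 8 of 8 sublibraries on each day, and rose by 0.54 on the log2 scale (edgeR, SE 0.129, adjusted p = 0.0486). The control was at 1395 CPM, inside the entospletinib range, and in B cells free of myeloid counts the ratio was 0.47 with an adjusted p of 0.317. *Fkbp5*, a chaperone that glucocorticoids induce, was at 79.4 CPM in the control pool, 65.5, 25.5 and 50.1 CPM in the vehicle pools and 59.1, 71.0 and 205 CPM in the entospletinib pools, past the fold at day 14 (relative log2 ratio 2.05) as in the other cells (2.71). It was the 1 gene of 9 kept from the glucocorticoid list past the fold higher that day, beside 1.18% of all genes kept.

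The B cell transcription factors had no edgeR call among 21 genes tested, *Pax5* of the rule left out, and none was past the fold at any day. *Ebf1* was at 3231 to 4959 CPM, *Foxp1* at 3246 to 5053 CPM and *Bach2*, which keeps B cells from becoming plasma cells, at 2314 to 3967 CPM. The 10 genes of MHC class II presentation, through which B cells show antigen to T cells, were not called either, with *Cd74* at 2425 to 3368 CPM. Of the follicular genes, *Cr2* at day 14 was the 1 past the fold, when 1.18% of all genes kept were past it higher. *Fcer2a* ranged from 240 to 329 CPM. The homing receptor gene *Ccr7* was at 277 CPM with vehicle and at 217 CPM with entospletinib at day 14, lower in 8 of 8 sublibraries (relative log2 ratio -0.34) and short of the fold. Of the migration list, edgeR called *Cd44* lower among 18 genes tested (log2 ratio -0.86, adjusted p = 0.00486), beside 1.08% of all genes tested. In B cells free of myeloid counts the edgeR ratio of *Cd44* was -0.25 with an adjusted p of 0.801. The 18 cell cycle genes summed to between 80.8 and 253 CPM, highest with entospletinib at day 14. The interferon response, survival, marginal zone, B-1, plasma cell, precursor and cytokine lists had no edgeR call among 13, 13, 6, 7, 5, 2 and 6 genes tested. The single calls in the germinal centre, age-associated and glucocorticoid lists were *Basp1*, *Cd80* and *Il1r2*, all lower and all with too few counts to test in B cells free of myeloid counts, and that in the transitional list beside *Atp1b1* was *Tmsb10*, an actin-binding protein gene (log2 ratio 0.64, adjusted p = 0.0254, and 0.58 with an adjusted p of 0.312 without myeloid counts). *Cdkn1a*, a cell cycle inhibitor, was the other call of the cyclin list (log2 ratio -2.08, adjusted p = 0.0304), with too few counts to test in B cells free of myeloid counts or without doublets.

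Few of the B cells held a count of a switched immunoglobulin isotype. The rule counts *Ighd*, which B cells lose when they switch, so it takes switched cells less readily and in part sets how few there are. *Ighm* was seen in 2511 B cells, *Ighd* in 2345 and both in 1658, while 35 cells (0.923%, exact interval 0.643 to 1.28) had a count of *Ighg1*, *Ighg2b*, *Ighg2c*, *Ighg3*, *Igha* or *Ighe*. These switched isotypes had 76 counts, beside 6391 of *Ighm*. The share of cells with a switched count was 1.14% in the control pool, 1.1%, 0% and 2.38% in the vehicle pools and 0.797%, 0.745% and 0.474% in the entospletinib pools, where 0 of 169 cells at day 7 allows up to 2.16%. The 10 switched cells with vehicle at day 14 (interval 1.15 to 4.33%) and the 5 with entospletinib at that day (0.154 to 1.1%) rest on few counts and on unequal depth. The plasma cell gene *Jchain* was seen in 6 cells and *Tnfrsf17* in 0. Plasma cells lose *Pax5* and *Ms4a1*, so the rule may miss them, and in the other cells *Ighg1* was at 21.4 CPM with entospletinib at day 14 and at most 2.29 CPM elsewhere.

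At least 1 light chain count was seen in 2422 cells, and at least 3 in 855. Lambda counts exceeded kappa counts in 27.2% of the cells with unequal counts (592 lambda and 1586 kappa, exact interval 25.3 to 29.1), and the share was 29.0% in the control pool, 20.6%, 32.2% and 26.8% in the vehicle pools and 23.6%, 30.3% and 34.0% in the entospletinib pools. The intervals of the same-day pairs overlapped. Counts of both chains occurred in 676 cells, where a B cell normally makes 1 kind. Without called doublets the lambda share was 26.8%, and 607 of 2184 cells held both chains. The part of free RNA or of doublets that were not called was not tested. Among cells with at least 3 light chain counts the lambda share was 23.9%, and 488 of the 855 cells held counts of both chains. The shares therefore describe counts and are not read as the part of B cells that use lambda.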

How the data were processed

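The processed data were 1 sparse matrix of raw counts per gene and cell, deposited by the authors with a gene table and a cell table, made with the Parse pipeline for Evercode libraries on mm10. The 8 deposited samples are sublibraries holding cells of every condition. Each cell was assigned to its condition by the deposited cell table. Median depth was 822.5 to 2498 counts per B cell, and intervals and floors cover counting error only. The study's limit of 1.5% ribosomal protein counts was used as an alternative only.

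Counts were summed over the B cells of a condition and scaled to CPM. Single-day comparisons were ratios without a test, with 0.5 counts added per sublibrary for the direction of each. Treatment over 3 days was tested with edgeR 4.0.16 (R 4.3.3; glmQLFit and glmQLFTest, TMM, filterByExpr, day as a block, 6 pools, common biological coefficient of variation 0.131). DESeq2 1.42.0 was an alternative. Doublets were scored with simulated pairs (30 neighbours, 2000 genes, 30 components, score limit 0.5), which marked 10.0% of 90855 cells and 9.28% of B cells. Doublets stayed in the main values. The tests were checked on simulated data. For edgeR these held no day effect and no transcripts of other cells that differed by condition, so the check does not cover either. Python 3.11.15, numpy 2.4.6, scipy 1.17.1, pandas 2.3.3 and matplotlib 3.10.9 were used.

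Named genes were members of 23 B cell lists and 13 lists of other cell types, the 5 genes furthest past the fold in each direction and comparison, the 10 with the largest change in the same direction on all 3 days, up to 10 per direction with the lowest p among the edgeR calls, and the 15 with the highest ratio of B cells over other cells among genes of at least 100 CPM. *Sox5*, *Agbl1*, *Gm19951* and *Fau* were named after their values were seen. The members and the lists were chosen with earlier results of these data known. Removal of cells with a myeloid marker count was added after seeing the data. Some genes that these rules would name are not reported here.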

Additional observations from a re-analysis of the deposited data

Results flagged for a closer look

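One of the 8 sublibraries of vehicle at day 14 stood apart, with a B cell share of 3.18% (gap over range 0.714, above the critical value of 0.526). Among 7 groups of sublibraries tested this was the 1 that stood apart, and chance marks about 1 in 20.

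For 4 genes every sublibrary moved one way on one day and the other way on another day, and these differences between days were not tested. *Ccnb1ip1* had a relative log2 ratio (entospletinib over vehicle) of 1.57 at day 1 and -2.47 at day 7, and *Rn7sk*, a small nuclear RNA that restrains transcription elongation, had 1.39 at day 1 and -1.61 at day 14. *Rpph1*, the RNA of ribonuclease P, had 2.75 at day 1, lay below the median at day 7 (-1.64) and was again above it at day 14 (1.01). *Scarna2* had -2.19 at day 7 and 2.13 at day 14.

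Barcodes outside the cell limits also held B cell transcripts. With entospletinib, 1.69% of them at day 7 (65 of 3850) and 2.22% at day 14 (130 of 5848) passed the B cell gene rule, against 0.397% in the control (36 of 9074, exact interval 0.278 to 0.549). At day 1 it was 0.322% with entospletinib (4 of 1241, interval 0.0879 to 0.823), and the vehicle pools had 0.205%, 0.16% and 0.275%.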

How the results depend on the processing

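The higher B cell share with entospletinib kept its direction under each alternative compared. The share without cells holding other-type markers was not among them. On the log2 scale the day 1 ratio was 0.34 with the ribosomal protein limit. It was 1.59 when only B cells free of myeloid counts were counted, over all cells. That setting filters the B cells alone, so its ratio also holds the unequal part of B cells free of myeloid counts in each pool. The day 14 ratio was 1.5 and 2.52 under these, 1.63 above 500 genes per cell, 2.09 at 2 counts of the 6 genes and 1.3 at 6 counts. It was 2.13 thinned to 500 counts and 2.14 among cells with *Ptprc*. The thinned setting also asked for only 2 counts of the 6 genes and allowed no count of the exclusion genes, so it does not show depth alone. Vehicle over control at day 1 was -1.46 with the ribosomal limit, -1.66 for B cells free of myeloid counts over all cells and -0.44 thinned. At day 14 it was -1.14 among cells with *Ptprc*. Leaving out 1 sublibrary gave 0.85 to 0.92, 1.27 to 1.43 and 1.8 to 1.88 for treatment, and -0.73 to -0.63, -0.6 to -0.44 and -0.75 to -0.65 for injury, at days 1, 7 and 14.

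Counts of genes past the fold moved more, and the cause was not tested. TMM scaling in place of total counts gave 79 genes for treatment at day 14, 29 higher and 50 lower. For treatment at days 1 and 14 doublet removal left 10 genes (9 higher and 1 lower) and 48 genes (36 higher and 12 lower). For injury at days 1, 7 and 14 it left 25, 11 and 15. At 20 CPM there were 36, 49 and 137 genes for treatment and 123, 58 and 66 for injury, since more genes enter. Removing cells with other-type markers left 39 (treatment, day 14), 32 and 17 (injury, days 1 and 14), and removing myeloid counts left 42, 30 and 22. Thinning left 42 and 39 (treatment day 14, injury day 1), and the ribosomal limit gave 104 for injury at day 1. With 1 sublibrary left out, fewer sublibraries have to share a direction, and the counts were 22 to 31, 26 to 36 and 81 to 90 for treatment and 67 to 91, 28 to 51 and 37 to 52 for injury. Without sublibrary 8 there were 36 for treatment at day 7 and 51 for injury at day 7, and without sublibrary 6 there were 45 for the latter.

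The 153 edgeR calls became 361 without a filter, 16 without doublets, 8 without other-type markers, 10 without myeloid counts and 50 with DESeq2. They were 42 to 206 with a day left out: 99 without day 1, 206 without day 7 and 42 without day 14. The lambda share at 3 light chain counts was 23.9% over all cells, 23.1% in the control and 17.1% with vehicle at day 14.

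Some named genes reversed. Without other-type markers the treatment ratio was 0.08 for *Mpp7* at day 1, 0.11 for *Dgat1* at day 7 and 1.26 for *Basp1* at day 14, and the injury ratio was -0.29 for *Lpcat2* and for *Slc7a11* at day 1, -0.5 for *Tgm2* at day 7 and -2.0 for *Basp1* at day 14. Without myeloid counts the treatment ratio was 0.09 for *Dgat1* at day 7 and 0.48, 0.35 and 0.48 for *Basp1*, *Il1b* and *Ptgs2* at day 14, and the injury ratio was -0.74, -0.15 and -0.06 for *Cxcl2*, *Mapkapk3* and *Tgm2* at day 7 and -0.64 for *Basp1* at day 14. Thinned, *Smox* was 0.43 at day 1. Without doublets *Hdc* was -0.32 for injury at day 1, and the edgeR ratio was 0.26 for *Hdc* and 0.05 for *Cxcl2*. The conditions carry no replicate numbers in the labels, so pools were paired by day alone, in the edgeR and permutation tests.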
